A study of Mus musculus with 4 samples.

Results

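The genes of the eosinophil described here were chosen by name: Siglecf, Ccr3, Il5ra, Epx, Prg2, Prg3, Ear1, Ear2, Ear6 and Gata1. They are 10 of the 22911 genes that could be named on the arrays, and 14 of the 56605 probes belong to them. The mice had received 4% thioglycollate, an irritant that fills the peritoneal cavity with leukocytes, and their cells were washed out after 3 days and kept in medium with 10% serum. Total RNA was labelled with Cy3 from 100 ng and hybridised to Agilent 1-colour arrays. The 4 groups were LysM-St18flox cells after 3 h of lipopolysaccharide (LPS, a bacterial membrane component that activates Toll-like receptor 4), LysM-St18flox cells at 0 h, wild-type cells after 3 h of LPS and wild-type cells at 0 h, each with 1 array. The labels call the cells peritoneal macrophages, while the sample titles have PEC, which usually stands for peritoneal exudate cells. LysM names the lysozyme promoter, whose usual use is recombination in macrophages and neutrophils, so it need not act in eosinophils. St18 is the gene of a zinc finger transcription factor. The sources used here do not give the dose of LPS, the strain, age or number of the mice, or any allele of the wild-type mice beyond their label.

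Eosinophils are granulocytes that depend on the transcription factor GATA1 for their formation and on interleukin 5 for their growth and survival. They enter tissues along gradients of eotaxin chemokines read by the receptor CCR3, and they carry granules of basic proteins, a peroxidase and ribonucleases. Their granule protein RNAs are made mostly by precursors in the marrow, while the surface receptors are made by mature cells too. Eosinophils are resident in the mouse peritoneal cavity and are also found in thioglycollate exudates.

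Each value below is a normalized log2 signal, which is the log2 processed signal of a probe minus the log2 of its array's 75th percentile, so that 0 is the 75th percentile. A difference of 1 is 2-fold. A gene is represented by its brightest probe, and it is called measured where both arrays compared had that probe well above background. With 1 array per group there is no replicate error and no test: the spread between probes printed many times gave a standard deviation of 0.051 for the difference between single spots of 2 arrays, which covers spot error and not mice or cultures. The share of spots well above background was 52.2% to 55.6%, no spot was saturated, and the 75th percentile lay between 672 and 1067 processed signal units. The wild-type 0 h array stood apart in 1 respect: probes of the same gene disagreed there by a standard deviation of 0.228, against 0.101 to 0.128 on the other 3 arrays, over 4217 genes. The genotype comparison at 3 h does not use that array. The brighter St18 probe was well above background in the wild-type arrays only, and its LysM-St18flox signal was lower by at least 8.48-fold at 3 h and by at least 7.07-fold at 0 h. Whether the probe lies in the altered stretch of St18 is not known here.

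The eosinophil list gave signal in part: the receptors, ribonucleases and Gata1 did, and the granule genes Epx, Prg2 and Prg3 did not. Of the 10 genes, 7 were measured on all 4 arrays: Siglecf, Ccr3, Il5ra, Ear1, Ear2, Ear6 and Gata1. Epx, Prg2 and Prg3 stayed at background on all 4 arrays. Of the 14 probes, 8 were well above background on all 4 arrays, 2 on 3 arrays and 4 on none. The receptor, ribonuclease and Gata1 signals were mostly higher in LysM-St18flox than in wild-type cells at both times, by 1.46-fold to 2.86-fold for 6 of the 7 measured genes. After LPS the brightest probes of the 7 genes differed by at most 0.62 in either direction on the log2 scale, apart from Ear6 in wild-type cells. In whole-culture RNA, more eosinophils, more of these RNAs per eosinophil and signal from other cells that make them cannot be told apart.

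**Figure D1:**
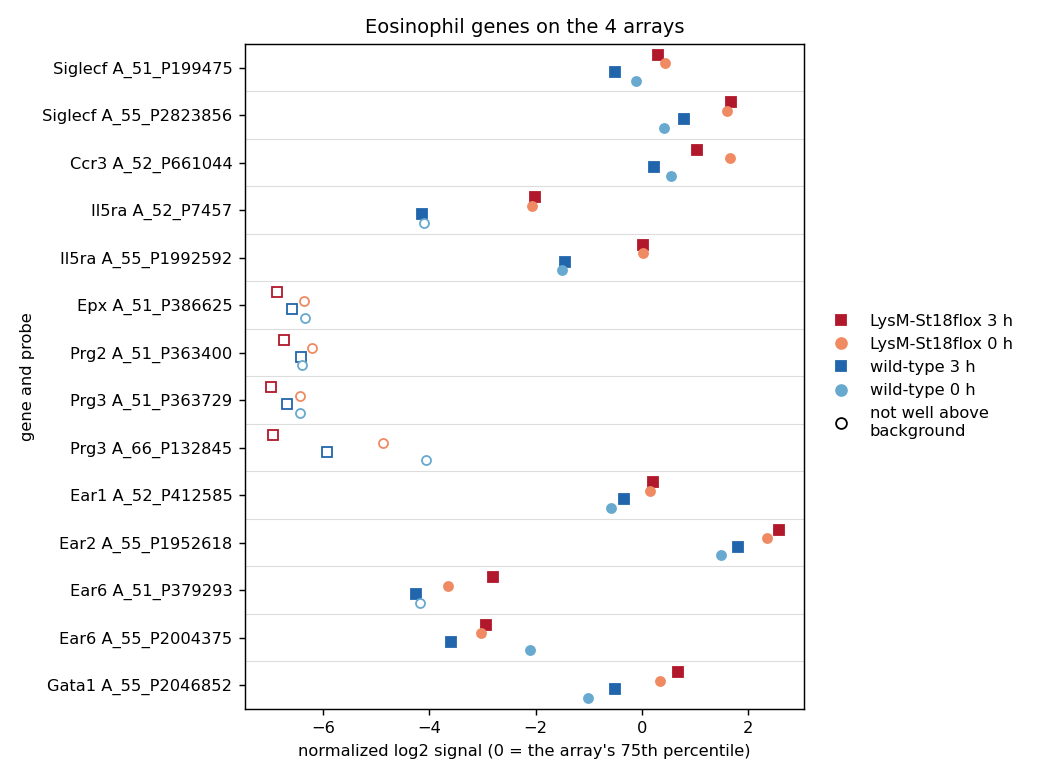
Normalized log2 signal (x axis, 0 is the array's 75th percentile) of all 14 probes of the 10 eosinophil genes (y axis) on each of the 4 arrays, 1 point per array, with open symbols for a probe not well above background. Ear2 and the brighter Siglecf probe sit above 0 on all 4 arrays, while the probes of Epx, Prg2 and Prg3 are open throughout.

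The surface receptors come first. Their promoters, 250 bases before to 50 after the annotated start in the RefSeq table of GRCm38.p6, are shown because GATA1 is the lineage factor of this cell and these 3 windows hold its motif. The motif searched was AGATAA or TGATAA on either strand, and the capitals mark the match, which here reads 5′ to 3′ in the direction of the gene. The Siglecf window is chr7:43351091-43351390 on the plus strand, with the motif 12 bases downstream of the start. The Ccr3 window is chr9:124021721-124022020 on the plus strand, with the motif 30 bases upstream, and the Il5ra window is chr6:106748988-106749287 on the minus strand, with the motif 74 bases upstream.
Siglecf: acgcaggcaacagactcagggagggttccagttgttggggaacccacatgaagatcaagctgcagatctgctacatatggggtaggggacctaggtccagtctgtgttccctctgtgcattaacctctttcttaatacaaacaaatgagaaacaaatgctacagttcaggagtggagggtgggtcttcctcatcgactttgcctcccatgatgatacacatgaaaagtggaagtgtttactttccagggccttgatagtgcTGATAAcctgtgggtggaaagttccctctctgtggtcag
Ccr3: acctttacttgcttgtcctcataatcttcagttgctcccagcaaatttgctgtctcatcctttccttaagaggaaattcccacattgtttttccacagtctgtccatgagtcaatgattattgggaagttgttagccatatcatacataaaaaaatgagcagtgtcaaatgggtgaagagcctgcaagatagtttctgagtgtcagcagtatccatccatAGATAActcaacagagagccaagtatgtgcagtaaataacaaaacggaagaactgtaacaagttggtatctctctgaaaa
Il5ra: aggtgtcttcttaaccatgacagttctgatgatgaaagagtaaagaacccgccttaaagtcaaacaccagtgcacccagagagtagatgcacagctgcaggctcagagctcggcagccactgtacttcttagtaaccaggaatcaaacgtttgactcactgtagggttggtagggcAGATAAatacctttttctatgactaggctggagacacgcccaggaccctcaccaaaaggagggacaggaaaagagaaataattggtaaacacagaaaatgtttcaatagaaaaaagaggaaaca
Of the 9 genes with a window in that table, Prg3 also held the motif, on the reverse strand as TTATCA 123 bases upstream, and Epx, Ear1, Ear2, Ear6 and Gata1 did not. The motif is found in 18.6% of all 32851 promoter windows of the table. A match is a description of these letters and no evidence of binding.

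Siglecf encodes Siglec-F, a sialic acid receptor by which mouse eosinophils are commonly identified and which alveolar macrophages carry too. Its brighter probe had a normalized log2 signal of 1.68 and 1.61 in LysM-St18flox cells at 3 h and 0 h, against 0.80 and 0.43 in wild-type cells at 3 h and 0 h. It was higher in LysM-St18flox than in wild-type cells at each time, by 0.88 at 3 h (1.84-fold) and by 1.19 at 0 h (2.27-fold). The dimmer Siglecf probe read 0.30 and 0.45 in LysM-St18flox cells at 3 h and 0 h, against -0.50 and -0.11 in wild-type cells. It gave the same order of genotypes with a difference of 0.80 at 3 h and 0.56 at 0 h, so that at 0 h only the brighter probe passed 2-fold.

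Ccr3 encodes the receptor for eotaxins. Its single probe read 1.04 and 1.66 in LysM-St18flox cells at 3 h and 0 h, against 0.24 and 0.54 in wild-type cells at 3 h and 0 h. At each time the LysM-St18flox value was the higher one. Between genotypes it differed by 0.81 at 3 h (1.75-fold) and by 1.12 at 0 h (2.17-fold), the last being 0.98 when arrays were scaled by their median.

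Il5ra encodes the alpha chain of the interleukin 5 receptor, which in the mouse is found on eosinophils and on B-1 cells, a B cell type common in the peritoneal cavity. Its brighter probe read 0.03 and 0.02 in LysM-St18flox cells at 3 h and 0 h, against -1.45 and -1.496 in wild-type cells at 3 h and 0 h. Within each genotype these 2 values differed by less than 0.101, which is 2 standard deviations of spot error. The genotypes differed by 1.49 at 3 h (2.80-fold) and by 1.52 at 0 h (2.86-fold), the largest values among the 7 measured genes at both times. With normexp correction the 0 h value was 1.12, below that of Siglecf at 1.14. The dimmer Il5ra probe was 4.38-fold higher at 3 h, and at 0 h, where it was not well above background in wild-type cells, at least 4.05-fold higher.

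The granule genes Epx, Prg2 and Prg3 gave no measurable signal. Epx, on chromosome 11, encodes eosinophil peroxidase, Prg2 encodes major basic protein and Prg3, on chromosome 2, its homologue. The Epx probe read -6.87, -6.36, -6.59 and -6.34 on the LysM-St18flox 3 h, LysM-St18flox 0 h, wild-type 3 h and wild-type 0 h arrays. The Prg2 probe read -6.75, -6.22, -6.42 and -6.40 in the same order. Prg3 had 2 probes, with values between -7.00 and -4.07. The scanner flagged none of these 4 probes as well above background on any array, so no fold change is given. At this sensitivity a genotype or LPS difference of Epx, Prg2 and Prg3 was not detectable.

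The ribonucleases of the eosinophil-associated family lie on chromosome 14 and include close copies. The promoter windows of Ear1 and Ear2 were identical at 98.0% of their 300 positions, those of Ear1 and Ear10 at 92.3%, and those of Ear1 and Ear6 at 86.3%. The windows of other family members differed more, with 75.3% for Ear1 and Rnase2a and 48.3% to 52.7% for Ear14 against the others. Probe sequences were not used here, so signal of 1 copy in the probe of another cannot be told apart from its own. Ear2 had 2.59 and 2.36 in LysM-St18flox cells at 3 h and 0 h, against 1.82 and 1.497 in wild-type cells at 3 h and 0 h. Ear1 had 0.22 and 0.16 in LysM-St18flox cells, against -0.33 and -0.58 in wild-type cells. Both genes were higher in LysM-St18flox cells at each time, as were 28.8% of 12343 genes. Ear2 was 1.71-fold higher in LysM-St18flox cells at 3 h and 1.82-fold higher at 0 h, and Ear1 was 1.46-fold and 1.66-fold higher, all short of 2-fold. Both genes are also made by some macrophages.

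Ear6 did not follow this order. Its brighter probe read -2.93 and -3.02 in LysM-St18flox cells at 3 h and 0 h, against -3.59 and -2.10 in wild-type cells at 3 h and 0 h. The wild-type 0 h value was the highest of the 4, and the other 3 lay within 0.67 of each other. The genotypes therefore differed by 0.67 at 3 h and by -0.92 at 0 h. The dimmer Ear6 probe read -2.81 and -3.64 in LysM-St18flox cells and -4.24 in wild-type cells at 3 h, and was not well above background in wild-type cells at 0 h. By that probe the LysM-St18flox signal was 2.70-fold higher at 3 h and higher by at least 1.42-fold at 0 h. The direction for Ear6 at 0 h thus depended on the probe, on the array whose probes of 1 gene disagreed most.

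Gata1, on the X chromosome, encodes the lineage factor, which mast cells, erythroid cells and megakaryocytes also use. Its probe read 0.68 and 0.34 in LysM-St18flox cells at 3 h and 0 h, against -0.51 and -1.002 in wild-type cells at 3 h and 0 h. At each time it was higher in LysM-St18flox cells, by 1.19 at 3 h (2.28-fold) and by 1.34 at 0 h (2.53-fold).

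**Figure D2:**
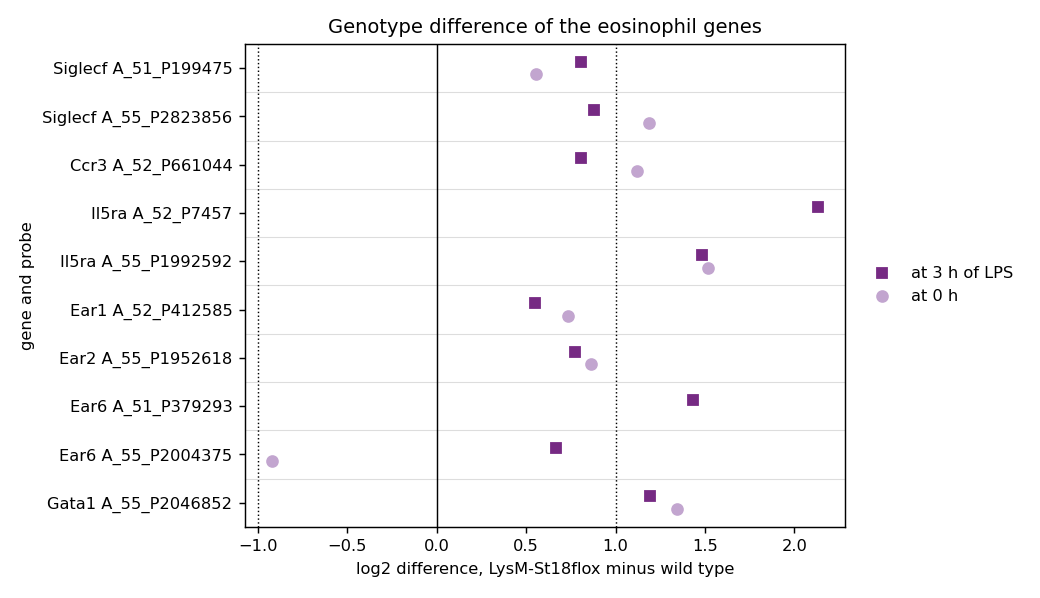
Log2 difference of LysM-St18flox minus wild-type cells (x axis) for each member probe well above background on both arrays (y axis), at 3 h of LPS (squares) and at 0 h (circles), with dotted lines at 2-fold. All 10 squares lie right of 0, and the only circle left of 0 is the brighter Ear6 probe at -0.92.

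Counted together at 3 h, 2 of the 7 measured genes, Il5ra and Gata1, reached 2-fold in favour of LysM-St18flox cells, as did 1.82% of 13048 measured genes. None was at least 2-fold lower, where 1.4% of genes were, and 7 of 7 lay above 0, where 47.4% of genes did. Their median difference was 0.81, against -0.01 over all measured genes. At 0 h, 4 of 7 were at least 2-fold higher, these 2 with Siglecf and Ccr3, where 3.04% of 12679 genes were. None was at least 2-fold lower, where 3.03% were, 6 of 7 lay above 0, where 46.9% did, and the median was 1.12, against -0.03 over all genes. At both times, 2 of 7 were at least 2-fold higher (0.834% of 12343 genes), 6 of 7 at least 1.4-fold higher (2.92%), 6 of 7 above 0 (28.8%) and none below 0 (34.4%).

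Siglecf, Il5ra, Ear1, Ear2 and Gata1 shared 1 order of levels, with LysM-St18flox 3 h at the top, then LysM-St18flox 0 h, wild-type 3 h and wild-type 0 h. The dimmer Siglecf probe kept the genotypes apart but had 0 h above 3 h in each. For the brighter Siglecf probe and for Ear1 the 2 LysM-St18flox neighbours differed by less than 2 standard deviations of spot error. For Il5ra only the step between the genotypes exceeded that error. Ccr3 had 0 h above 3 h in each genotype, and Ear6 had wild-type 0 h at the top. Summed over the 10 genes as multiples of the 75th percentile, the signal was 15.2 and 14.9 in LysM-St18flox cells at 3 h and 0 h, against 8.42 and 7.46 in wild-type cells. The ratio of LysM-St18flox to wild type was 1.81 at 3 h and 2.001 at 0 h, and bright probes weigh most in it.

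The comparison after LPS asked whether stimulation for 3 h moved these genes. In LysM-St18flox cells no member was at least 2-fold higher or lower at 3 h than at 0 h, where 8.12% and 8.97% of 12976 measured genes were. In wild-type cells no member was at least 2-fold higher (9.04% of 12588 genes) and 1 was at least 2-fold lower (11.6%), Ear6 at -1.49. Above 0 were 6 of 7 members in LysM-St18flox cells, where 43.0% of genes were, and 5 of 7 in wild-type cells, where 43.2% were. Several of these lay within 0.101 of 0, which is 2 standard deviations of spot error. By the brightest probe they were Siglecf, Il5ra, Ear1 and Ear6 in LysM-St18flox cells and Il5ra in wild-type cells. The dimmer Ear6 probe was 0.83 higher at 3 h than at 0 h in LysM-St18flox cells (1.78-fold). The median difference was 0.07 in LysM-St18flox cells, against -0.09 over all genes, and 0.25 in wild-type cells, against -0.11 over all genes.

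Ccr3 was the only measured member below 0 in both genotypes, at -0.62 in LysM-St18flox cells (1.54-fold lower) and -0.31 in wild-type cells (1.24-fold lower). Gata1 was 1.27-fold higher at 3 h than at 0 h in LysM-St18flox cells and 1.41-fold higher in wild-type cells. Ear2 differed by 0.23 in LysM-St18flox cells and 0.32 in wild-type cells, and Il5ra by 0.01 and 0.04. The 2 Siglecf probes disagreed in sign, with 0.07 and -0.14 in LysM-St18flox cells and 0.37 and -0.39 in wild-type cells. Over the measured genes, 5 of 7 members lay above 0 in both genotypes, where 32.8% of genes did, and 1 below 0, where 45.7% did. Of these 5, Siglecf, Il5ra and Ear1 were within 2 standard deviations of spot error in LysM-St18flox cells. No member was at least 1.4-fold higher in both, where 12.3% of genes were, or at least 2-fold higher in both, where 6.19% were. The 2 genotype comparisons and the 2 LPS comparisons share arrays pairwise and are not independent of each other.

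**Figure D3:**
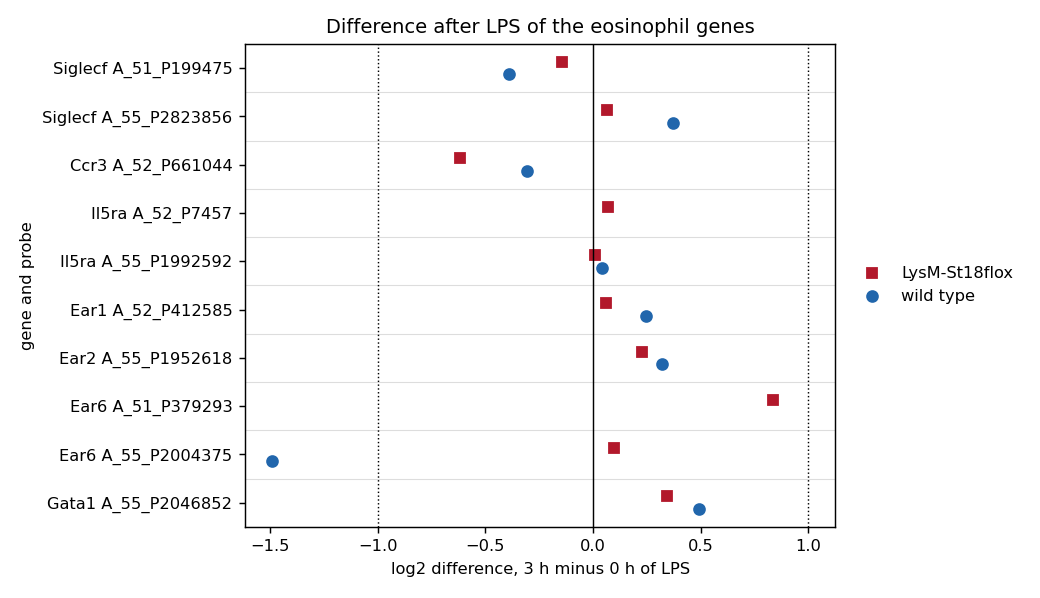
Log2 difference of 3 h minus 0 h of LPS (x axis) for each member probe well above background on both arrays (y axis), in LysM-St18flox cells (squares) and wild-type cells (circles), with dotted lines at 2-fold. All points lie between the dotted lines except the brighter Ear6 probe in wild-type cells at -1.49.

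Genes that act around the eosinophil were taken from 5 further lists. Among the other Ear ribonucleases, 2 of 3 with a probe were measured. Both were above 0 and under 2-fold higher in LysM-St18flox cells at both times, where 28.8% of 12343 genes were above 0. Ear10 had 0.62 at 3 h and 0.77 at 0 h, and Rnase2a had 0.72 and 0.74. Neither is at least 2-fold apart in any comparison, so they were named after their values were seen. Rnase2b was at background on all 4 arrays.

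Of the 6 ligands of CCR3, Ccl24 (eotaxin-2), Ccl5, Ccl7 and Ccl8 were measured, while Ccl11 (eotaxin-1) and Ccl28 were at background throughout. Ccl5 read 8.04 and 1.74 in LysM-St18flox cells at 3 h and 0 h, against 8.21 and 0.61 in wild-type cells. Ccl7 read 7.64 and 3.27 in LysM-St18flox cells, against 8.12 and 4.22 in wild-type cells. Ccl5, Ccl7 and Ccl8 were each at least 2-fold higher at 3 h than at 0 h in both genotypes, where 6.19% of 12343 genes were. Ccl8 was higher by 1.54 in LysM-St18flox cells and 1.22 in wild-type cells. Ccl24, chosen for mention after its values were seen, differed after LPS by 0.44 in LysM-St18flox cells and 0.46 in wild-type cells. It was lower in LysM-St18flox cells by 0.93 at 3 h (log2 difference -0.93) and by 0.91 at 0 h (-0.91). Between genotypes no ligand was at least 2-fold lower at 3 h, where 1.4% of genes were, or at 0 h, where 3.03% were. Of the 4 measured only Ccl5 at 0 h was at least 2-fold higher, at 1.12, with -0.17 at 3 h. Over all genes 3.04% were at least 2-fold higher at 0 h and 1.82% at 3 h.

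Of the 8 growth and type 2 cytokines, Il5, Il3 and Il13 were at background on all 4 arrays. Il4 read 1.14 and -0.11 in LysM-St18flox cells at 3 h and 0 h, against -0.58 and -1.35 in wild-type cells. Il4, which eosinophils, mast cells and basophils can all make, was 1.72 higher on the log2 scale in LysM-St18flox cells at 3 h and 1.25 higher at 0 h. Csf2, Il33 and Tslp, an eosinophil growth factor and cytokines that raise type 2 responses, were well above background only at 3 h in both genotypes. After LPS, LysM-St18flox cells had Csf2 higher by at least 13.7-fold and wild-type cells by at least 15.1-fold. The bounds for Il33 were at least 15.5-fold and 12.2-fold, and those for Tslp at least 5.72-fold and 5.33-fold. Il25, another cytokine of type 2 responses, ran the other way: it was well above background only in LysM-St18flox cells at 0 h, with -3.44. That value was higher by at least 2.47-fold than in LysM-St18flox cells at 3 h and by at least 1.63-fold than in wild-type cells at 0 h. At 3 h the genotype differences were -0.13 for Csf2, 0.36 for Il33 and 0.11 for Tslp.

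**Figure D4:**
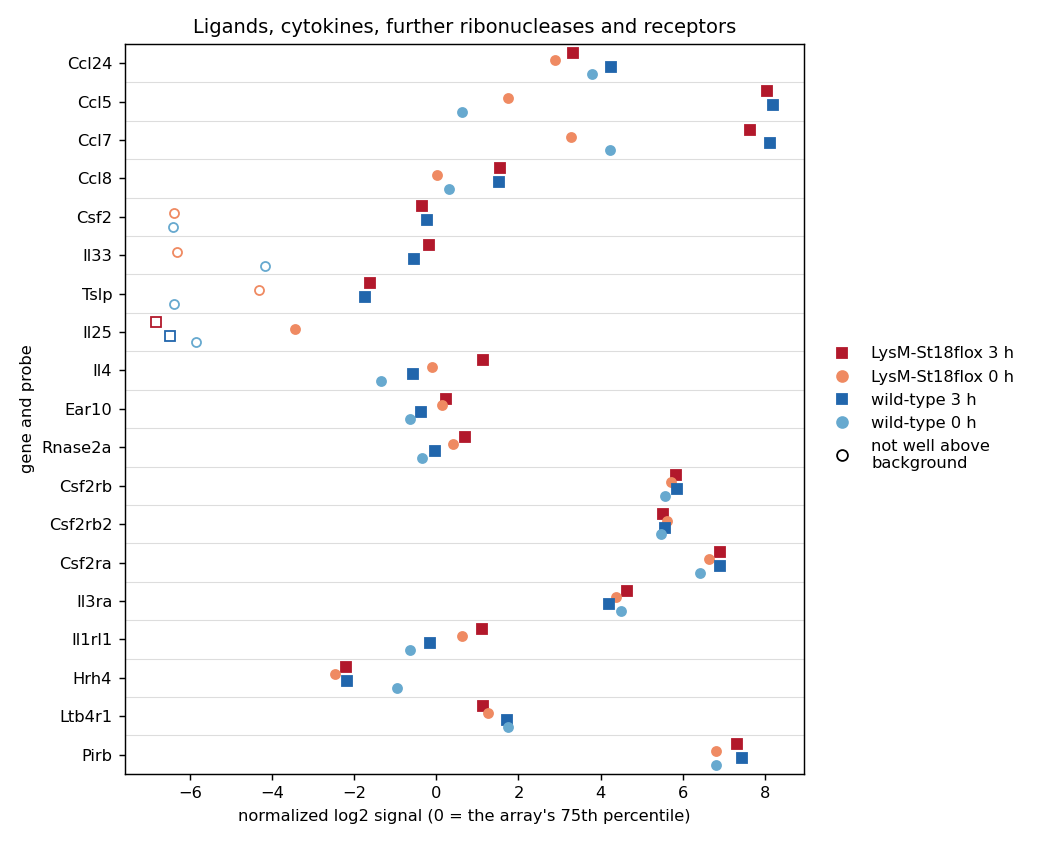
Normalized log2 signal (x axis, 0 is the array's 75th percentile) of the ligands, cytokines, further ribonucleases and receptors around the eosinophil (y axis), 1 point per array, with open symbols for a probe not well above background. Ccl5 and Ccl7 lie far right at 3 h in both genotypes, and at each time Il4 and Il1rl1 lie further right in LysM-St18flox than in wild-type cells.

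Partner chains and other receptors found on eosinophils, many shared with macrophages, had 8 of 9 members measured, and the median over them was -0.03 between genotypes at 3 h and 0.08 at 0 h. Csf2rb, the common beta chain with which Il5ra signals, read 5.83 and 5.71 in LysM-St18flox cells at 3 h and 0 h, against 5.85 and 5.57 in wild-type cells. It was named as the partner of a member after its values were seen. These are values of its brightest probe, which differed between genotypes by -0.02 at 3 h and 0.14 at 0 h. The dimmer Csf2rb probes differed by 0.04 and -0.09 at 3 h and by 1.008 and 0.47 at 0 h. After LPS in wild-type cells they differed by 1.09 and 0.63, against 0.29 for the brightest. Il1rl1, which encodes the interleukin 33 receptor of eosinophils, mast cells and other type 2 cells, was 1.27 higher on the log2 scale in LysM-St18flox cells at each time. Hrh4, the histamine H4 receptor gene, differed between genotypes by -0.03 at 3 h and -1.501 at 0 h, with its highest signal on the wild-type 0 h array.

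The lineage transcription factors, apart from Gata1, included 1 member of 8 measured that was at least 2-fold higher between genotypes at 3 h and none of 9 at 0 h, and none lower at either time. Over all measured genes, 1.82% were at least 2-fold higher at 3 h and 3.04% at 0 h, and 1.4% and 3.03% were lower. A list this short cannot be told apart from those shares by such a count. Gata2, which works with Gata1 in eosinophil and mast cell precursors, was 0.16 at 0 h and at least 1.55-fold higher at 3 h, where it was not well above background in wild-type cells. Cebpa, a myeloid factor gene, was lower after LPS by -4.10 on the log2 scale in LysM-St18flox cells and -3.85 in wild-type cells. Irf8, a factor gene of monocyte and dendritic cell formation, was 1.18 at 3 h and -0.47 at 0 h between genotypes. Spi1 (PU.1) was -0.28 at 3 h and 0.84 at 0 h, and Id2 0.41 at 3 h and -0.12 at 0 h.

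Markers of other cells differed between the genotypes in the same arrays. For scale, 1.82% of all measured genes reached 2-fold in favour of LysM-St18flox cells at 3 h and 3.04% at 0 h. The shares that reached 2-fold in favour of wild-type cells were 1.4% at 3 h and 3.03% at 0 h. Of the B cell markers, 10 of 10 with a probe were well above background on some array, and Ms4a1 had the largest difference, 3.12 at 3 h and 3.65 at 0 h. Of these markers 4 of 7 measured ones were at least 2-fold higher between genotypes at 3 h (median 2.28) and 5 of 7 at 0 h (2.23), and their summed signal was 17.6 and 23.7 times the 75th percentile in LysM-St18flox cells at 3 h and 0 h, against 4.50 and 6.25 in wild-type cells. Of the mast cell markers, 7 of 8 were above background on some array, 4 of 6 were at least 2-fold higher at 3 h (1.51) and 3 of 6 at 0 h (0.98), led by the proteases Cma1 and Cpa3, and their sum was 17.7 and 9.61 in LysM-St18flox cells, against 16.1 and 5.17 in wild-type cells. Cma1 differed by 2.32 at 3 h and 2.53 at 0 h, and Cpa3 by 2.05 at 3 h and 2.24 at 0 h. Hdc, the histidine decarboxylase gene, mentioned after its values were seen, gave most of that sum at 3 h and differed the other way, with 3.44 and 1.35 in LysM-St18flox cells at 3 h and 0 h, against 3.82 and 1.58 in wild-type cells. Of the erythroid markers, 4 of 8 were above background, 3 of 3 measured ones were at least 2-fold higher at each time (3.27 and 2.79), led by the globin gene Hbb-bt at 3.84 and 3.75, and the sum was 93.7 and 79.9, against 9.50 and 11.1, while Klf1, Epor and Slc4a1 were among those not above background on any array. Of the basophil markers, 3 of 5 were above background on some array, with a sum of 0.324 and 0.322 in LysM-St18flox cells against 0.155 and 0.149 in wild-type cells, and Mcpt8 and Ms4a2 were not above background on any array. Of the T and NK cell markers, 4 of 9 measured ones were higher by 2-fold or more at 3 h (median 0.72) and 4 of 7 at 0 h (1.41), and the dendritic cell markers a median of 0.55 at 3 h and 0.66 at 0 h. Other lists were lower. The mesothelial and stromal markers had 8 of 8 at least 2-fold lower at 3 h (median -1.53) and 6 of 8 at 0 h (-1.18), with Col3a1 at -1.98 and -2.03. The neutrophil markers had 3 of 9 lower by 2-fold or more and 1 higher at 3 h (-0.41) and 4 of 10 lower at 0 h (-0.34), with S100a9 at -2.74 and -2.25. The platelet and megakaryocyte markers had 2 of 6 measured at 3 h (median -0.91) and 3 of 6 at 0 h (-0.98). The 3 h median rests on Pf4 at -0.58 and Ppbp at -1.24 alone, and 3 of the 6 were not above background on any array. B-1 cells share Il5ra with eosinophils, mast and erythroid cells share Gata1, and mast cells share Il1rl1 and Il4. The part of these cells in the values of those genes was not tested.

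Siglecf, Ccr3, Ear1 and Ear2 are not on these lists, which were chosen by name. That does not show that the listed cells lack them, and the part of those cells in their values was not tested. Large peritoneal macrophage markers had 10 of 10 measured members above 0 at both times, where 28.8% of 12343 genes were. Their median was 0.88 at 3 h and 0.97 at 0 h. Their sum was 31.7 and 29.8 in LysM-St18flox cells at 3 h and 0 h, against 22.1 and 16.3 in wild-type cells. The general macrophage markers, with 11 of 11 measured, had a median of -0.09 at 3 h and -0.24 at 0 h, and a sum of 719 and 625, against 776 and 708. The part of macrophages in the ribonuclease and Siglecf signals was not tested.

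**Figure D5:**
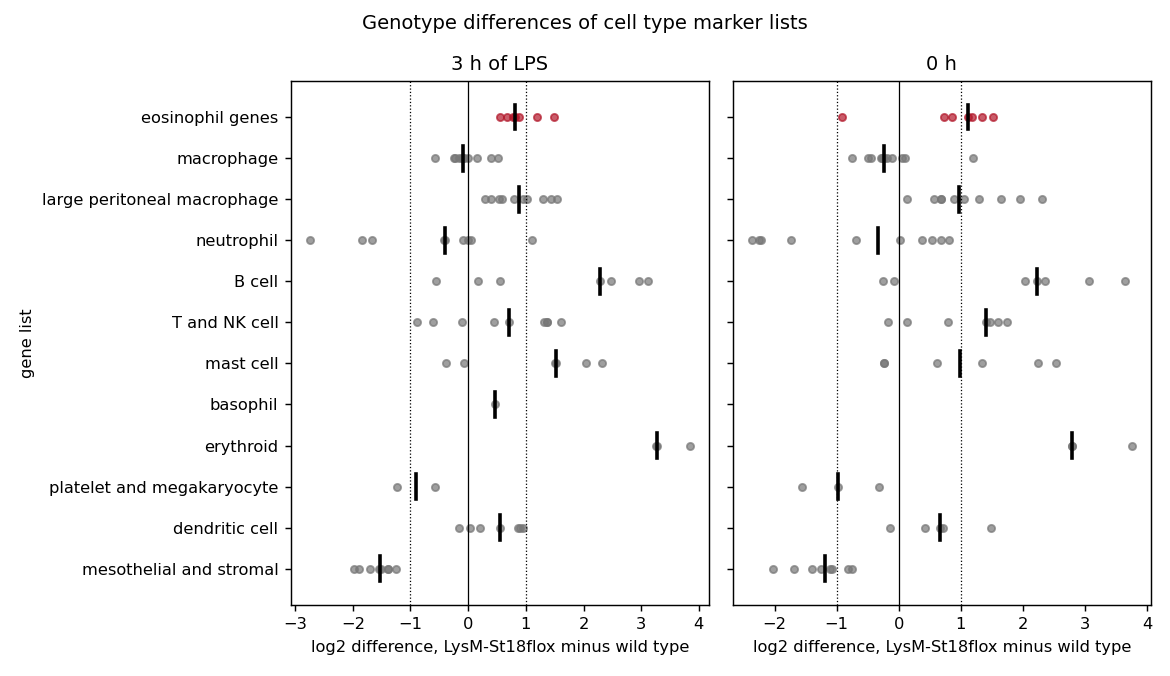
Log2 difference of LysM-St18flox minus wild-type cells (x axis) for each measured gene of the eosinophil list and of 11 cell type marker lists (y axis), at 3 h of LPS (left panel) and at 0 h (right panel), with black bars at list medians and dotted lines at 2-fold. The eosinophil median of 0.81 and 1.12 lies between those of macrophage markers and of B cell and erythroid markers.

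Among the genes compared, those whose 4 array values were most like the mean of the 7 measured members, each centred on its own mean, were Cyp4f18, Il18r1, Emid1, Plxdc2, Cd209a and Ppm1l. Members and genes with clone, predicted, accession-type or olfactory receptor names were left out of the genes compared. The distance over 4 values ran from 0.059 for Cyp4f18 to 0.138 for Ppm1l on the log2 scale, and 11546 genes were compared. The mean profile was 0.45 and 0.42 in LysM-St18flox cells at 3 h and 0 h, against -0.46 and -0.41 in wild-type cells. The members themselves lay at 0.30 for Ear2, 0.31 for Ear1, 0.34 for Siglecf, 0.50 for Ccr3, 0.59 for Gata1, 0.63 for Il5ra and 1.43 for Ear6. Of the 11546 genes compared, 46 lay nearer to the mean than Ear2 did and 576 nearer than Il5ra. For Ear6, which is part of the mean, 8936 lay nearer. Cyp4f18 read 4.24 on both LysM-St18flox arrays, against 3.40 at 3 h and 3.37 at 0 h in wild-type cells. Likeness over 4 single arrays is a description and carries no test.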

How the data were processed

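The submitters' processing notes name Agilent Feature Extraction 11.0.1.1 for the spot values, which are scanner output of 4 Agilent 1-colour arrays on 1 slide. Per the file headers, the deposited processed intensity is background-subtracted and detrended, not normalized between arrays. The deposited value table holds log2 values, with a median of 9.58 in each column. Its normalization is not stated in the sources used, and its centring is unknown. Each of its columns correlated with its own array's log2 signal at 0.99994 or more.

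From the deposited intensities, log2 signals of spots of 1 probe were averaged without outlier-flagged spots, and the 75th percentile over non-control spots was subtracted. Accessions named 32994 of 35886 RefSeq probes through the RefSeq gene table of GRCm38.p6. The file headers name another build, so coordinates are those of the RefSeq promoter windows. A gene above background on 1 array was given as a bound, taken against the lowest value well above background on the dim array or the dim probe's own value where that is higher. Differences are between single arrays, so no p-value was computed, and GEO labels gave the groups. The number of arrays limits the precision.

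The members and lists were chosen with earlier results of these data known. By a rule, every member was named, and these could be named: other eosinophil-list genes at least 2-fold apart in any comparison, the 2 marker genes per list with the largest genotype difference, and the 6 nearest genes. Some list members are not reported here. Alternatives were normexp (offset 50, limma 3.58.1, R 4.3.3) on median spot signals, median scaling, quantile normalization, no filter, a filter on all 4 arrays, the mean of probes and the deposited table. Python 3.11.15, pandas 2.3.3 and numpy 2.4.6 were used, and the steps were tested on simulated data.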

Additional observations from a re-analysis of the deposited data

Results flagged for a closer look

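In each case here 2 groups gave opposite signs under the same comparison, each from single arrays, and the difference was not tested. Ear6 differed after LPS by 0.10 in LysM-St18flox cells and -1.49 in wild-type cells, and between genotypes by 0.67 at 3 h and -0.92 at 0 h. Its wild-type 0 h value was the highest of the 4 arrays, and its other probe was not well above background there. Hrh4 differed after LPS by 0.27 in LysM-St18flox cells (0.265) and -1.20 in wild-type cells.

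Irf8 differed after LPS by 0.054 in LysM-St18flox cells and -1.60 in wild-type cells, and between genotypes by 1.18 at 3 h and -0.47 at 0 h. Between genotypes Ccl5 differed by -0.17 at 3 h (-0.165) and 1.12 at 0 h, Ccl8 by 0.022 and -0.30, Id2 by 0.41 and -0.12, and Spi1 by -0.28 and 0.84. By the design, 1 of the 2 differences in any such pair uses the wild-type 0 h array, for every gene, flagged here or not. Probes of 1 gene disagreed most on that array, and its part in these signs was not tested.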

How the results depend on the processing

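No paired analysis was possible because each group had 1 array. No comparison changed the sign of its median over the members, and the counts of members at least 2-fold higher stayed within 1.5 times of those given, under the 7 alternatives named above and without the 3 Ear genes (chosen after seeing the data). At 3 h the genotype median of 0.81 was 0.72 with no background filter and 1.04 without the Ear genes. At 0 h the median of 1.12 was 1.05 with normexp, 0.98 with median scaling, 0.80 with no filter, 0.87 with the mean of probes, 1.17 in the deposited values and 1.26 without the Ear genes. Of LPS in LysM-St18flox cells the median of 0.07 was 0.30 with median scaling, which moved the median of all genes to 0.14, against -0.09. Of LPS in wild-type cells the median of 0.25 was 0.18 with normexp, 0.33 with median scaling, 0.012 with no filter and 0.043 with the mean of probes. The count of lower members was 1 in place of 0 at 0 h between genotypes with median scaling, with quantile normalization and in the deposited values (Ear6), and 1 in place of 0 with no filter both at 3 h between genotypes and for LPS in LysM-St18flox cells. For LPS in wild-type cells it was 1, but 2 with no filter and 0 with normexp and without the Ear genes. Between genotypes at 0 h, Siglecf ranged from 0.87 to 1.23, Ccr3 from 0.98 to 1.17, Il5ra from 1.12 to 1.58, Gata1 from 1.06 to 1.38 and Ear2 from 0.73 to 1.05. At 3 h Ear6, at 0.67, was 0.24 with normexp and 1.05, past 2-fold, with the mean of probes. The sign of the LPS difference of Siglecf changed in 2 alternatives in LysM-St18flox cells and 1 in wild-type cells, and that of Il5ra in 1 in wild-type cells. Signal over background limits Epx, Prg2 and Prg3, whose probes were at background on every array.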
